A study of Mus musculus with 2 samples.

Results

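The genes described here are the structural and assembly genes of the striated muscle sarcomere. The list of 49 genes was set by gene symbol from their place in the sarcomere, with earlier results of these data known, and all 49 symbols were found among the 40879 in the files. The 2 libraries were made from intestine of mice on a C57BL/6 background that were 8 weeks old when a period of 28 days on regular water began, and RNA of 3 mice was pooled for each of them. One library was labelled wild type (WT) and the other was labelled heterozygous for ERAP1 (ERAP1+/-), with loxP-flanked exons 6 and 7 of 1 allele removed by a Cre strain whose promoter is not given in the sources used here. The ERAP1 tm1a allele came from 1 embryonic stem cell clone, and the methods call all mice germ-free while also naming specific pathogen-free housing. The question behind the pair of libraries was which intestinal genes differ with the loss of 1 copy of ERAP1, an aminopeptidase of the endoplasmic reticulum that trims peptides for antigen presentation.

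Striated muscle, which makes up skeletal muscle and the heart, contracts by sliding thick filaments of myosin along thin filaments of actin within a repeating unit called the sarcomere. Thin filaments are anchored at the Z-disc and thick filaments at the M-band, and the giant proteins titin and nebulin set the length and position of the filaments. Most sarcomere proteins exist as separate fast, slow, cardiac and developmental isoforms, each from its own gene. The muscle wall of the intestine is mainly smooth muscle, which has no sarcomeres, whereas skeletal muscle surrounds the gut at its upper end and at the anal canal.

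The files held 8114826 counted reads for the WT library and 8907515 for the library labelled ERAP1+/-, of which mitochondrial and ribosomal RNA took 18.0% and 16.7%. Below, reads are given first for WT and then for the library labelled ERAP1+/-. Erap1 itself (chromosome 13, 74639568 to 74693201) had 229 and 2 reads, and its level in the library labelled ERAP1+/- was 0.730% of the WT level (95% interval 0.0878% to 2.67%). A heterozygote keeps 1 intact copy, so this level goes against the label, and every direction below is that of the library carrying the label. Reads from the 3' end lie outside the deleted exons and so do not check the deletion. Intestinal markers were present in both libraries: their summed level was 103% of WT, and 66.9% without Muc2, the main mucin of goblet cells, which had 12020 and 32939 reads and was left out after its values were seen. Their median log2 difference was -0.31, with 6 of 10 below WT. The X-inactivation transcript Xist had 1635 and 6451 reads, and the Y-linked gene Ddx3y had 319 and 29, so that the sex makeup of the pools and the genotype cannot be told apart.

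With 1 library per genotype no difference has a replicate check, the spread between mice cannot be estimated, and no test was possible. Levels are CPM, reads scaled to a common library size after adjustment by edgeR's TMM method, and log2 differences are on the log2(CPM + 1) scale, which understates the difference of genes with few reads. Ratios carry exact 95% intervals that cover counting error only. A count of 0 was taken to allow up to 3 reads, or 0.386 CPM in WT and 0.322 CPM in the library labelled ERAP1+/-. In pooled tissue RNA, fewer muscle fibres and less RNA per fibre cannot be told apart.

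Sarcomere genes were lower as a group in the library labelled ERAP1+/-. Together they took 17504 reads in WT, 0.216% of the library (95% interval 0.213% to 0.219%), and 3699 reads in the library labelled ERAP1+/-, 0.0415% (0.0402% to 0.0429%). Their summed level was 17.7% of WT (95% interval 17.0% to 18.3%), which is 5.67-fold lower. With reads of 44 members in WT and 37 in the other library, 39 of the 49 genes reached 10 reads over both libraries.

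A gene was called lower or higher where its log2 difference passed 1 in size and its log2(CPM + 1) was at least 4 in 1 or both libraries. Of the 22 sarcomere genes past that level, 18 were lower and 0 were higher, while over all 8013 gene symbols past that level 3.96% were lower and 1.39% were higher. Among the 39 genes with at least 10 reads, all 39 log2 differences were below 0, as were 8026 of all 16142 genes with that many reads. On the log2(CPM + 1) scale, 32 of the 39 were lower by more than 2-fold, a share to be read against 5.63% of those 16142 genes. By the ratio of CPM, 34 of the 39 were below 50% of WT, since the pseudocount of 1 CPM keeps Myh4 and Tnnt1 within 2-fold on the log2 scale. The share of all genes below 50% by that ratio was not counted. The interval of the ratio lay wholly below 1 for 38 of the 39, as it did for 23.8% of all genes with at least 10 reads. The median log2 difference of the 39 was -2.24 (-2.23 with genes at 0 set at 3 reads), and the median over all genes with at least 10 reads was 0.0020. The plot of all gene symbols in both libraries shows these 39 genes below the diagonal, and of the members with fewer reads Myoz2 and Xirp1 above it.

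**Figure D1:**
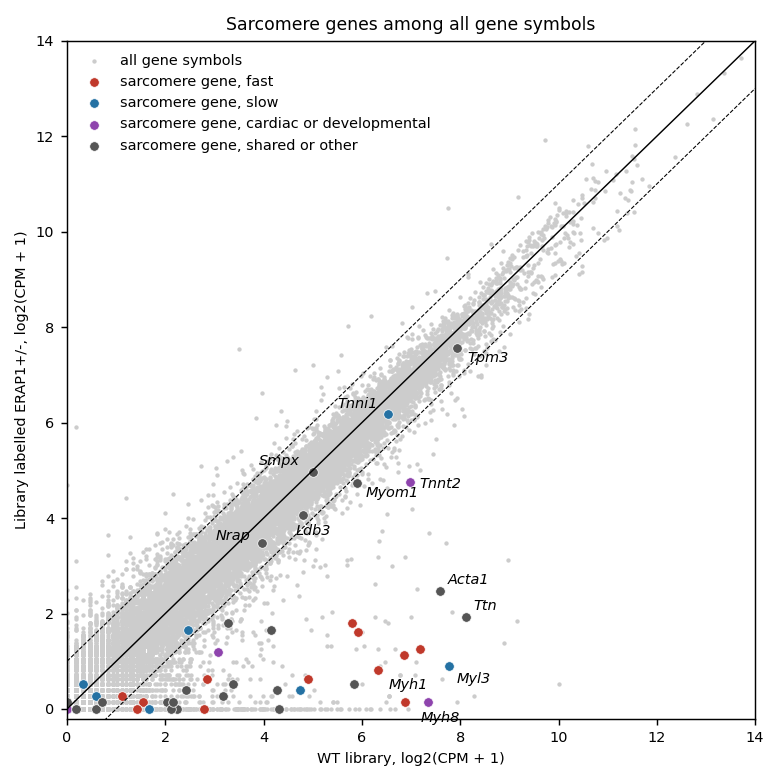
Level of every gene symbol in the WT library (x axis) and in the library labelled ERAP1+/- (y axis), both as log2(CPM + 1), with sarcomere genes coloured by isoform class. The solid line marks equal levels and the dashed lines a 2-fold difference; the 18 sarcomere genes called lower lie below the lower dashed line, while Tpm3, Tnni1 and Smpx lie between the dashed lines.

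The size of the difference varied widely among the members. No read was counted in the library labelled ERAP1+/- for 6 of the 39 genes (Csrp3, Lmod2, Mylk2, Myot, Myoz1 and Xirp2), and 21 further genes were at up to 10% of the WT level. Another 7 lay between 10% and 50% (Actc1, Cmya5, Myh4, Myom1, Myom3, Tnnt1 and Tnnt2), and 5 lay between 50% and 100% (Ldb3, Nrap, Smpx, Tnni1 and Tpm3). None of the 39 was at or above the WT level under TMM scaling. The shares of all genes that fall in these bands were not counted. As a result, the makeup of the sarcomere reads differed: Tpm3, Tnni1 and Smpx held 16.2% of them in WT (2840 reads) and 73.3% in the library labelled ERAP1+/- (2710 reads).

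The thick filament genes were at 0.850% of WT when summed (5407 and 55 reads, 95% interval 0.639% to 1.11%), and at 1.06% without Myl3. Of the 14 genes, 10 reached 10 reads and all 10 were below WT, and all 7 past the level filter were called lower. Myosin heavy chains are the motor proteins of the filament, and all but Myh7 of those listed here lie in a cluster on the plus strand of chromosome 11 of the mouse genome build GRCm38, where Myh3, Myh2, Myh1, Myh4 and Myh8 lie in this order from 67078300 to 67308634. Myh8, the perinatal heavy chain (67277124 to 67308634), had 1259 reads and 1 read. Its level in the library labelled ERAP1+/- was 0.0663% of WT (95% interval 0.00168% to 0.370%), a log2 difference of -7.20 and the lowest of all members. Myh1, a fast heavy chain of type IIx fibres (67200052 to 67224575), had 909 reads and 1 read, a level of 0.0919% (0.00232% to 0.513%). The fast heavy chain of type IIa fibres, Myh2 (67171027 to 67197517), had 225 and 5 reads, a level of 1.86% (0.597% to 4.40%). Myh4, the heavy chain of the fastest type IIb fibres, had 9 and 2 reads, and the ratio of 18.6% has an interval from 1.95% to 89.7%. Neither the embryonic Myh3 nor the slow and cardiac Myh7 (chromosome 14, minus strand) had a read in either library. Of the 75-base words at the 3' end of Myh7, 16.6% also occur in Myh6, which had 0 and 2 reads.

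Myosin light chains, which stabilize the lever arm of the motor, were also far below WT. Myl3, the essential light chain of slow fibres and the ventricle (chromosome 9, 110741861 to 110769798), had 1702 and 8 reads, a level of 0.393% of WT (95% interval 0.169% to 0.775%) and a log2 difference of -6.89. Mylpf, the fast regulatory light chain (chromosome 7, 127208890 to 127214298), had 618 and 7 reads, or 0.946% (0.379% to 1.96%). Myl1, the fast essential light chain (chromosome 1, 66924295 to 66945404), had the highest ratio of the light chains, with 423 and 23 reads, or 4.54% (2.85% to 6.91%). Myl2, the slow regulatory light chain, had no read in either library. Myosin-binding protein C crosslinks the thick filament: its slow form Mybpc1 had 200 and 3 reads, a level of 1.25% (0.256% to 3.71%), and its fast form Mybpc2 had 48 and 5 reads, a level of 8.70% (2.70% to 21.7%). The related Mybph had 1 read in WT and none in the other library. Mylk2, the kinase of the skeletal light chains, had 13 reads and none, and was at least 5.19-fold lower against the floor of 3 reads in the library labelled ERAP1+/-. With the counting error of the WT reads as well, the exact 95% limit was 3.65-fold, and this limit is given in parentheses for the other genes without a read.

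Both giant proteins were close to 1% of WT, and at 0.966% when summed (2594 and 30 reads, 95% interval 0.650% to 1.38%), an interval that overlaps that of the thick filament. Ttn (chromosome 2, 76703980 to 76982547) encodes titin, the spring that spans from Z-disc to M-band, and it had 2154 and 26 reads, a level of 1.01% of WT (95% interval 0.657% to 1.48%). Neb (chromosome 2, 52136647 to 52378474) encodes nebulin, which runs along the thin filament of skeletal muscle, and it had 440 and 4 reads, or 0.759% (0.206% to 1.96%). These intervals overlap.

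**Figure D2:**
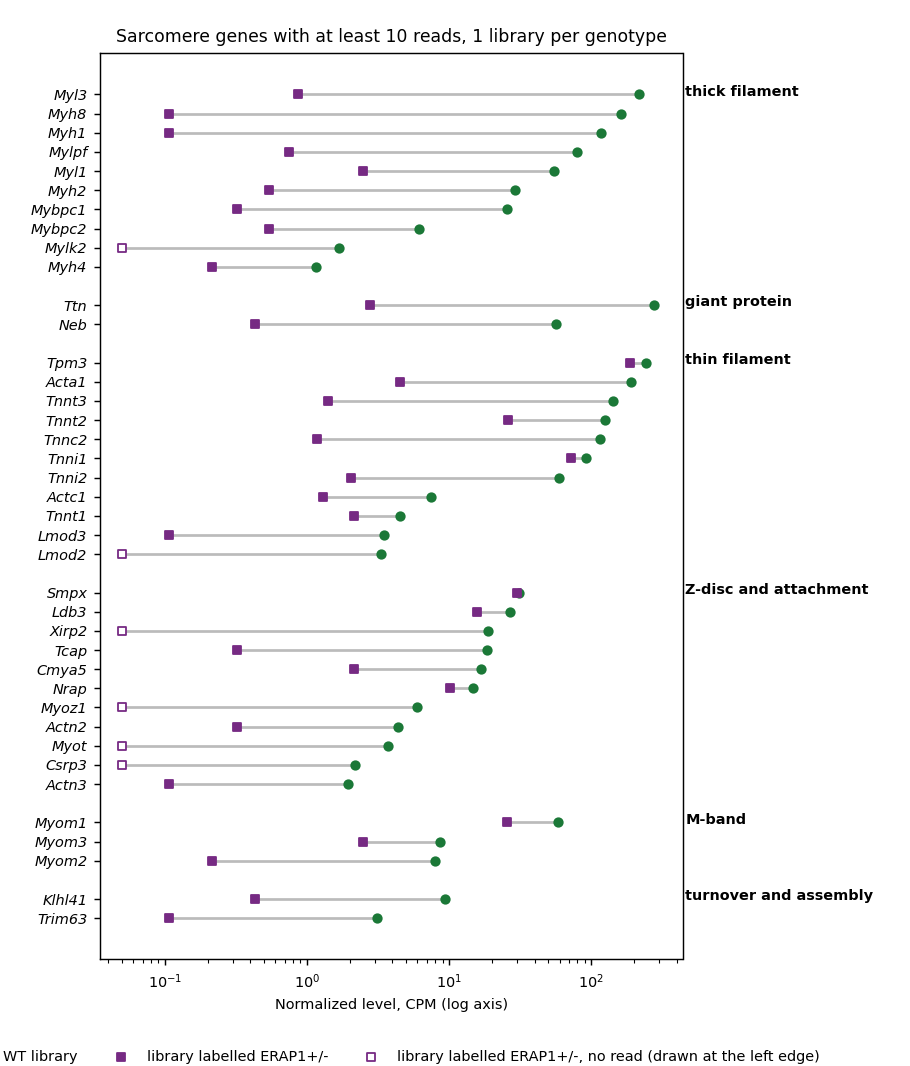
Normalized level (CPM, log axis) of the 39 sarcomere genes with at least 10 reads, grouped by their place in the sarcomere, in the WT library (green circles) and the library labelled ERAP1+/- (purple squares, open at the left edge for the 6 genes without a read). Grey lines join the values of 1 gene; they are long for every thick filament gene past the level filter and short for Tpm3, Tnni1, Smpx, Ldb3 and Nrap.

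The thin filament was split. Its summed level was 30.3% of WT (7686 and 2791 reads, 95% interval 29.0% to 31.7%), and 14.8% without Tpm3. Of the 11 genes with at least 10 reads, 5 were called lower, and Tpm3 and Tnni1 passed the level filter without being called. Acta1, the alpha-actin of skeletal muscle (chromosome 8, 123891769 to 123894751), had 1490 and 42 reads, a level of 2.35% of WT (1.69% to 3.20%), or 42.5-fold lower. Actc1, the cardiac alpha-actin, had 58 and 12 reads, a level of 17.3% (8.45% to 32.5%). The intervals of these ratios do not overlap, and the actin of skeletal muscle had the lower one.

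Troponin, the calcium switch of the thin filament, has a subunit that binds calcium (troponin C), an inhibitory subunit (troponin I) and a subunit that binds tropomyosin (troponin T). In each subunit the fast form was at 3.44% of WT or less. The fast troponin C gene Tnnc2 (chromosome 2, 164777161 to 164779967) had 898 and 11 reads, a level of 1.02% of WT (95% interval 0.509% to 1.84%). Tnni2, the fast inhibitory subunit (chromosome 7, 142441808 to 142444410), had 461 and 19 reads, or 3.44% (2.05% to 5.44%). Tnnt3, the fast troponin T (chromosome 7, 142498836 to 142516009), had 1113 and 13 reads, or 0.976% (0.518% to 1.68%).

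The slow and cardiac troponins had other values. Tnni1, the slow inhibitory subunit (chromosome 1, 135779434 to 135810989), had 713 and 669 reads, a level of 78.4% of WT (95% interval 70.4% to 87.2%). Tnnt2, the cardiac troponin T, lies nearby on the same strand (135836354 to 135852260) and had 975 and 241 reads, a level of 20.6% (17.9% to 23.8%) and a log2 difference of -2.23. The intervals of these genes on chromosome 1 do not overlap, while both fast genes on chromosome 7 were below 4% of WT. The slow troponin T gene Tnnt1 had 35 and 20 reads, or 47.7% (26.1% to 85.0%), and the slow and cardiac troponin C gene Tnnc1 had 4 and 2 reads.

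Tpm3, an alpha-tropomyosin gene that gives a slow muscle form and forms found in many other cells (chromosome 3, 90072649 to 90100902), had more reads over both libraries than any other member. Its 1886 and 1761 reads gave a level of 78.0% of WT (95% interval 73.0% to 83.3%), close to that of Tnni1. Reads of the muscle form and of the other forms cannot be told apart in a count per gene. Of the leiomodins, which start the growth of actin filaments, the members Lmod2 and Lmod3 were low in both libraries. Lmod2 had 26 reads and none, at least 10.4-fold lower against that floor (7.85-fold), and Lmod3 had 27 reads and 1 read, a level of 3.09% (0.0756% to 18.8%). Lmod1, listed with the smooth muscle genes, had 1691 and 1067 reads.

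Genes of the Z-disc and of attachment sites had log2 differences from -4.31 to -0.04 where they reached 10 reads. Their summed level was 41.0% of WT (1126 and 553 reads), and 25.8% without Smpx. Of the 14 genes, 11 reached 10 reads, 5 passed the level filter and 3 were called lower: Tcap, Xirp2 and Cmya5. Tcap, the small protein that caps titin at the Z-disc (chromosome 11, 98383811 to 98384953), had 143 and 3 reads, a level of 1.75% (95% interval 0.357% to 5.23%). Xirp2, an actin-binding Xin repeat protein (chromosome 2, 67446002 to 67526614), had 146 reads and none, at least 58.3-fold lower against the floor (46.8-fold). Cmya5, the large protein myospryn, had 130 and 20 reads, or 12.9% (7.60% to 20.7%).

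The remaining structural Z-disc genes were measured at lower depth. The alpha-actinins, which crosslink actin at the Z-disc, had 34 and 3 reads for Actn2 (7.37%, 95% interval 1.45% to 23.4%) and 15 reads and 1 read for the fast form Actn3 (5.57%, 0.132% to 36.2%). Myozenin 1, a calcineurin-binding protein of fast fibres, had 46 reads of Myoz1 and none, at least 18.4-fold lower against the floor (14.3-fold). Myot, for the actin-bundling protein myotilin, had 29 reads and none and was at least 11.6-fold lower (8.83-fold), and Csrp3, the muscle LIM protein, had 17 reads and none and was at least 6.78-fold lower (4.94-fold). Each of these genes had at most 3 reads in the library labelled ERAP1+/-.

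A few Z-disc and attachment genes were closer to WT. Smpx, a small muscle protein encoded on the X chromosome (157698910 to 157752591), had 241 and 280 reads, a level of 97.0% of WT (95% interval 81.4% to 116%). It was the only 1 of the 39 whose interval included 1, and its log2 difference of -0.04 became 0.08 when libraries were scaled by their total count. Nrap, the nebulin-related anchoring protein, had 114 and 94 reads, or 68.9% (51.9% to 91.3%). Ldb3, a PDZ and LIM domain protein that binds alpha-actinin (chromosome 14, 34526603 to 34588682), had 209 and 147 reads, or 58.8% (47.2% to 72.9%).

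At the M-band the 3 myomesins, which crosslink thick filaments at their centre, differed from each other. Myom1 (chromosome 17, 71002633 to 71126856) had 456 and 239 reads, a level of 43.8% of WT (95% interval 37.3% to 51.3%), and was the called gene with the smallest difference, -1.16 on the log2 scale. Myom3 had 67 and 23 reads, or 28.7% (17.0% to 46.7%). Myom2 had 62 and 2 reads, or 2.69% (0.319% to 10.2%), with an interval below those of the other two. The summed level was 37.7% of WT, and 16.2% without Myom1.

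The genes for turnover and assembly of the sarcomere were few in reads. Klhl41, an adaptor that stabilizes nebulin, had 73 and 4 reads, a level of 4.58% of WT (95% interval 1.21% to 12.2%). Trim63, the ubiquitin ligase MuRF1 of muscle wasting, had 24 reads and 1 read, or 3.48% (0.0846% to 21.3%). The other two, Klhl40 and Trim54, had 5 reads and 1 read, and 4 reads and none. Under 10 reads over both libraries there were also Myoz2 with 2 and 4 reads, Xirp1 with 0 and 1, and Ankrd2 with none.

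By isoform class, all 12 fast genes reached 10 reads and lay below 50% of WT, 11 of them lower by over 2-fold also on the log2(CPM + 1) scale, and their summed level was 1.52% of WT (4778 and 87 reads, 95% interval 1.22% to 1.88%). The gene that fell short on that scale was Myh4, with a log2 difference of -0.83 on 9 and 2 reads. The 5 slow genes with at least 10 reads were split: Csrp3, Myl3 and Mybpc1 were lower by more than 2-fold on the log2(CPM + 1) scale, and Tnnt1 and Tnni1 had differences of -0.81 and -0.35 on it, at 47.7% and 78.4% of WT by the ratio of CPM. Summed, the 10 slow genes were at 22.1% of WT (2673 and 706 reads), and at 60.0% without Myl3. Of the cardiac and developmental genes, 3 of 3 measured were lower by more than 2-fold, and the class was at 9.26% (2292 and 254 reads), and at 20.5% without Myh8.

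**Figure D3:**
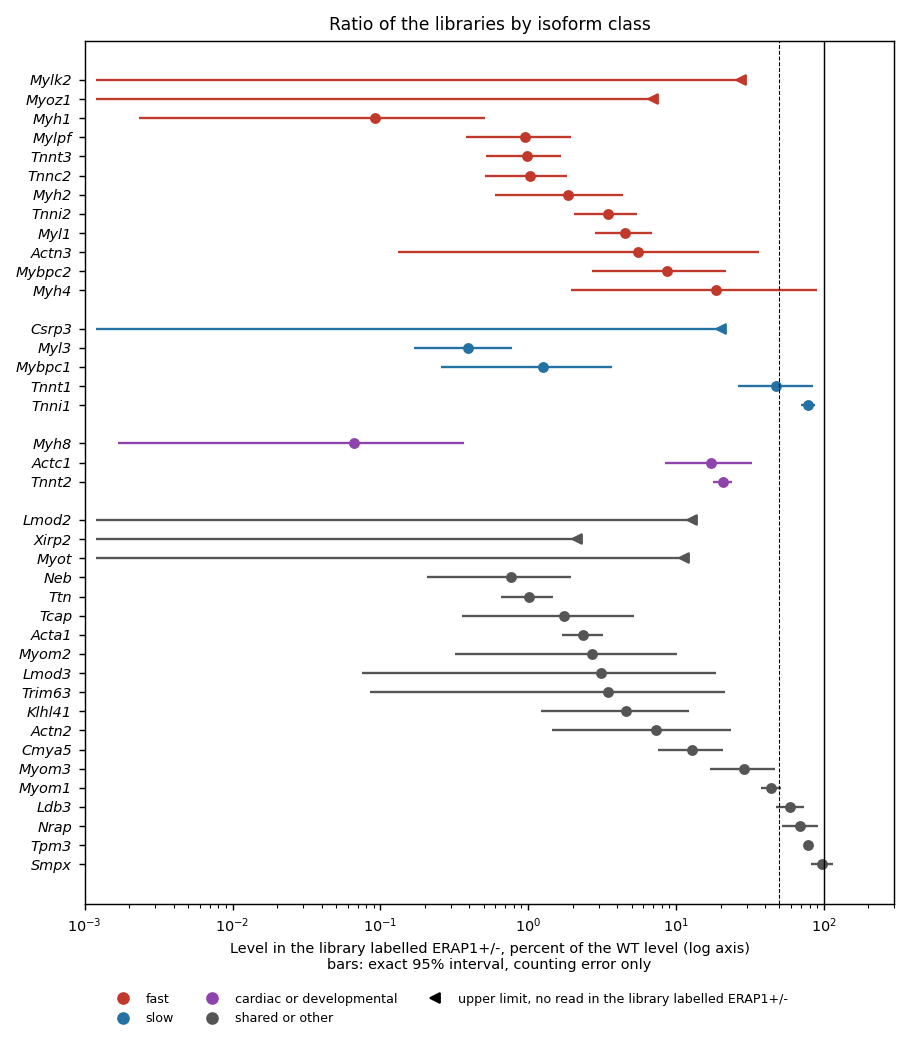
Level of each of the 39 sarcomere genes in the library labelled ERAP1+/- as a percent of its WT level (log axis), ordered within isoform classes, with exact 95% intervals for counting error only. Arrowheads mark upper limits of the 6 genes without a read, the solid line equal levels and the dashed line 50%; 12 fast genes lie left of 50% and the slow genes extend from Myl3 at 0.393% to Tnni1 at 78.4%.

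Within protein families, the isoforms that made up the reads differed between the libraries. Shares are compared only for the same isoform between libraries, since reads from 3' ends are not scaled by length, and their exact Clopper-Pearson intervals cover counting error only. Of the troponin I reads (1174 and 688), the slow Tnni1 held 60.7% in WT (95% interval 57.9% to 63.5%) and 97.2% in the library labelled ERAP1+/- (95.7% to 98.3%). Of the troponin T reads (2123 and 274), the cardiac Tnnt2 held 45.9% and 88.0%, the fast Tnnt3 52.4% and 4.74%, and the slow Tnnt1 1.65% and 7.30%. In both families the fast form held a smaller share in the library labelled ERAP1+/- and a slow or cardiac form a larger one, while every form was below its own WT level.

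The myosin families had few reads left to share out. Myosin heavy chains held 2402 reads in WT, of which 52.4% were Myh8, 37.8% Myh1 and 9.37% Myh2, and 9 reads in the library labelled ERAP1+/-, of which Myh2 held 55.6% (95% interval 21.2% to 86.3%). Light chains held 2743 and 38 reads, and the share of Myl3 was 62.0% in WT and 21.1% in the other library (9.55% to 37.3%), while that of the fast Myl1 was 15.4% and 60.5% (43.4% to 76.0%). Of the myosin-binding protein reads (249 and 8), the slow Mybpc1 held 80.3% and 37.5% (8.52% to 75.5%), and the fast Mybpc2 19.3% and 62.5% (24.5% to 91.5%). In the light chains and these binding proteins the fast Myl1 and Mybpc2 thus held larger shares in the library labelled ERAP1+/-, unlike the fast troponins. Among the alpha-actin reads (1548 and 54), the cardiac Actc1 held 3.75% and 22.2%. Myom1 held 77.9% and 90.5% of the myomesin reads (585 and 264), and Myom2 10.6% and 0.758%.

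**Figure D4:**
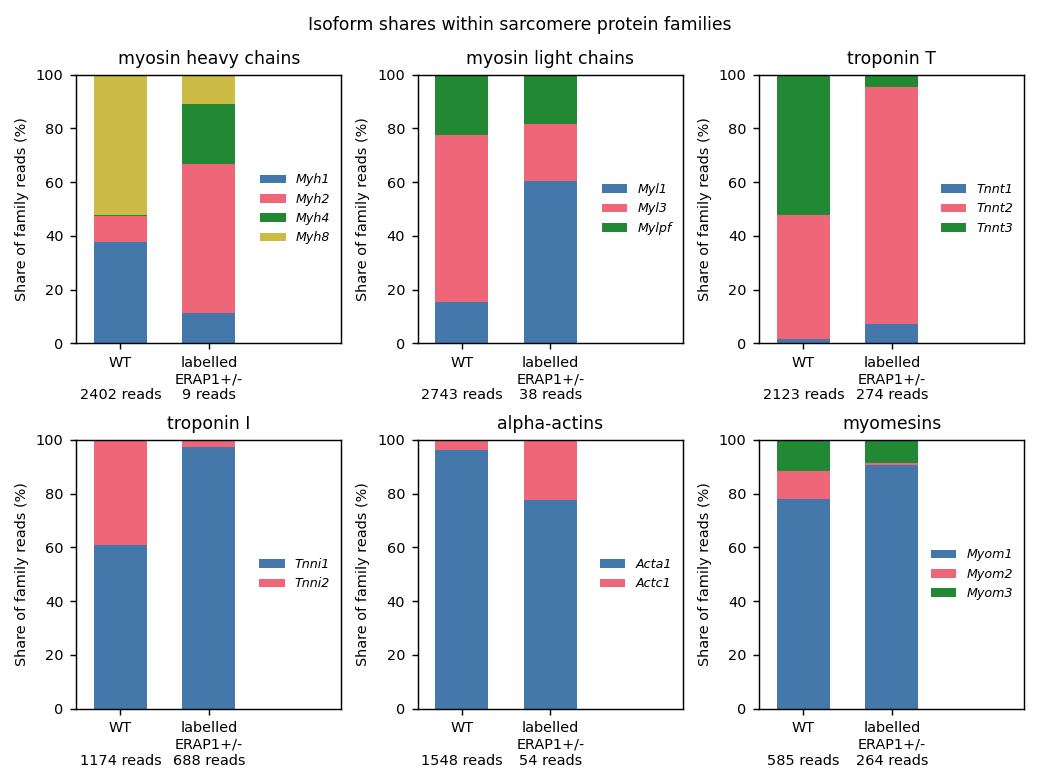
Share of each isoform in the reads of its protein family (y axis, percent) in the WT library and the library labelled ERAP1+/-, with the number of family reads under each bar. In troponin I the slow Tnni1 holds 60.7% and 97.2%, and in troponin T the cardiac Tnnt2 holds 45.9% and 88.0%; the heavy chain bar on the right rests on 9 reads.

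The start regions of the members were searched for letters of muscle regulatory motifs, whatever their difference between the libraries. RefSeq promoter windows of build GRCm38.p6 ran from 250 bases before to 50 after an annotated start of a gene. They were matched by symbol for 38 of the 49 genes and gave 45 windows. On either strand, the E-box CANNTG, which myogenic factors such as MyoD bind, was found in 88.9% of these windows and in 72.3% of all 32851. The MEF2 site was found in 17.8% and 3.19%, the CArG box that serum response factor binds in 15.6% and 1.63%, and the TATA box TATAAA in 28.9% and 13.6%. A TATA match can fall inside a MEF2 match, as 3 of the 16 in these windows do, and outside MEF2 matches the shares were 26.7% and 13.1%. A MEF2 or CArG match was present in 14 windows of 13 genes, which is 31.1% of the member windows, against 4.74% of all windows. Such matches are descriptions of the letters and not of binding. In 15 windows of members called lower, the E-box, MEF2 site, CArG box and TATA box were found in 13, 4, 3 and 5. In 7 windows of members past the level filter but within 2-fold, they were found in 4, 0, 2 and 0. These windows are few, and a link between motifs and the differences was not tested.

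Windows are printed for a pair of genes with very low ratios, Myh8 and Myl3, and for a pair near WT, Tnni1 and Smpx. These genes were chosen with their values known, and their windows do not stand for those of other members. All lie on the plus strand, at chr11:67276874-67277173, chr9:110763428-110763727, chr1:135799171-135799470 and chrX:157698723-157699022, and capitals mark matches to any of the 4 motifs. The windows of Myl3 and Tnni1 lie inside the gene coordinates given above and not at their outer start. Myh8 holds 2 E-boxes and a MEF2 match that contains its TATA match, Myl3 holds 1 E-box and 1 CArG match, Tnni1 holds 4 E-boxes, and Smpx holds none of the 4.
Myh8: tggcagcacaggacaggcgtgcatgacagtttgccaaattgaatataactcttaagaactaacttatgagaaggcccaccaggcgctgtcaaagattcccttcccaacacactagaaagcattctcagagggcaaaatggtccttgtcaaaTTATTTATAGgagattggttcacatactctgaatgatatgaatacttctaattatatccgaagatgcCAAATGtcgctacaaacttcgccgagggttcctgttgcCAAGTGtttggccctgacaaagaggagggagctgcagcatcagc
Myl3: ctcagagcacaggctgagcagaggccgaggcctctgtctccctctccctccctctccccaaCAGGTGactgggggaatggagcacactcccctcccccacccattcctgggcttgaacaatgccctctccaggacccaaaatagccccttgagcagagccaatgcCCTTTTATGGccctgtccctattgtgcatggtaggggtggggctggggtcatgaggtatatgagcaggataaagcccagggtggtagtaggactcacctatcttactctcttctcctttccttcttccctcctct
Tnni1: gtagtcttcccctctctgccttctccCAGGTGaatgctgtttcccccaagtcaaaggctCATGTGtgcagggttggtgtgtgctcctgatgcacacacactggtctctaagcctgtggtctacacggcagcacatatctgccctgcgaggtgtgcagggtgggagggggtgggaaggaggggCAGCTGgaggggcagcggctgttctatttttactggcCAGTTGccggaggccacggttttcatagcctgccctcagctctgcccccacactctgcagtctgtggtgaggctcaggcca
Smpx: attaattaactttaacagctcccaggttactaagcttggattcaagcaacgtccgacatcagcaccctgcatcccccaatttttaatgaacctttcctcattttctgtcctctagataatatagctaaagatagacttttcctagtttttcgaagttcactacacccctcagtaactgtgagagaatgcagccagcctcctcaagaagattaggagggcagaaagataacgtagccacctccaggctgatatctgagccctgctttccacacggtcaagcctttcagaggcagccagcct

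Near-identical copies and overlapping genes could move some counts. Among words of 75 bases, the read length, in the last 500 bases of annotated transcripts, 27.9% of those of Tpm3 also occur in Tpm3-rs7 and 16.1% of those of Myl1 in a pseudogene. Klhl41 shares 15.7% with other genes. Shares with other heavy chain genes were 9.44% for Myh1 and 2.57% for Myh4, that of Myh2 was higher than both, and the share was 0 for Myh8, Myl3, Ttn, Neb and the troponins. Whether the counting used strand is not stated. On the opposite strand, the 3' end of Tnnc2 overlaps that of Ube2c, which had 144 and 354 reads and was thus higher in reads where Tnnc2 was lower. Among further overlaps on that strand, Gm17197 (69 and 89 reads) lies within Nrap, and Nisch (702 and 823 reads) spans Tnnc1. How far these overlaps moved the counts was not tested.

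Other genes of the muscle fibre were lower to a smaller degree than the sarcomere genes in their medians. These lists also hold genes used in other cells, so their medians do not show that deep differences were particular to the sarcomere. Of 16 measured genes for calcium handling and excitation, 2 of the 5 past the level filter were called lower and the median log2 difference was -1.34. On the log2(CPM + 1) scale, 10 of the 16 were lower by more than 2-fold, against 5.63% of all genes with at least 10 reads. Below the level filter, Pvalb was at 1.58%, Ryr1 at 8.17% and Cacnb1 at 82.0% of WT, genes named after their values were seen. Triadin, which links calcium stores to their release channel, had 453 and 13 reads of Trdn, a level of 2.40% of WT (95% interval 1.27% to 4.14%). The fast-fibre calcium pump gene Atp2a1, named because it had no read in the library labelled ERAP1+/-, had 213 reads in WT and was at least 85.0-fold lower against the floor (68.5-fold). Its relative Atp2a2, used in slow fibres, the heart and many other cells, was at 88.7% (81.8% to 96.1%), and Casq2 at 49.7%. Energy enzymes of muscle had 4 of 8 called lower and a median of -1.25, with the enolase Eno3 at 93.2% of WT and Cox7a1, a respiratory subunit, above WT at 120% (110% to 130%). Of the 14 measured, 9 were lower by more than 2-fold on the log2(CPM + 1) scale. Below the level filter, Pgam2 was at 1.04% and Ckmt2 at 69.6% of WT, also named after their values were seen. The 4 called genes, named after their values were seen, were the myoglobin gene Mb with 341 reads and 1 read (0.245% of WT, 95% interval 0.00618% to 1.37%), the creatine kinase Ckm at 10.2%, the glycogen phosphorylase Pygm at 20.1% and the phosphofructokinase Pfkm at 46.6%.

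Membrane and cytoskeletal genes of the fibre had 1 of 8 called lower and a median of -0.63. The intermediate filament gene Des had 3149 and 2001 reads (53.1% of WT), and the dystrophin gene Dmd 980 and 848 (72.3%). Myogenic regulators had 0 of 5 called, with a median of -0.47 over 9 genes. Named after their counts were seen, the myogenic factors Myod1, Myf5, Myf6 and Myog were near 0 in both libraries. Myod1 had 0 reads and 1 read, Myf5 none, Myf6 2 and 0, and Myog 6 and 0. Msc, a repressor of the muscle fate, went the other way with 2 and 27 reads. Of the genes of the neuromuscular junction, 4 were measured, with a median of -0.10.

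The heart and smooth muscle lists had smaller median differences than the sarcomere genes. Of the heart muscle genes, 4 of 12 reached 10 reads, 0 of 3 past the level filter were called, and the median was -0.37. All 12 are named here after their counts were seen. The measured ones were Ryr2 at 77.3% of WT, Pln at 60.7%, Myl4 at 66.8% and, against the direction of the list, Hand2 at 171% (139% to 210%). Of the rest, Myh6 had 0 and 2 reads, Tnni3 2 and 6, Nppa 0 and 4, and Myl7 7 and 1. Mybpc3, Nppb, Nkx2-5 and Gata4 had none in either library. Smooth muscle genes had 6 of 16 called lower, a median of -0.94 and a summed level of 52.7% of WT (52.3% to 53.2%), against 17.7% for the sarcomere genes. Acta2, the smooth muscle actin, was at 59.3%, and Tagln at 44.0%, while Actn1 was at 106%. Nonmuscle relatives of the sarcomere proteins had 0 of 12 called and a summed level of 77.6%, with beta-actin (Actb) at 78.5% and Myh9 at 101%.

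**Figure D5:**
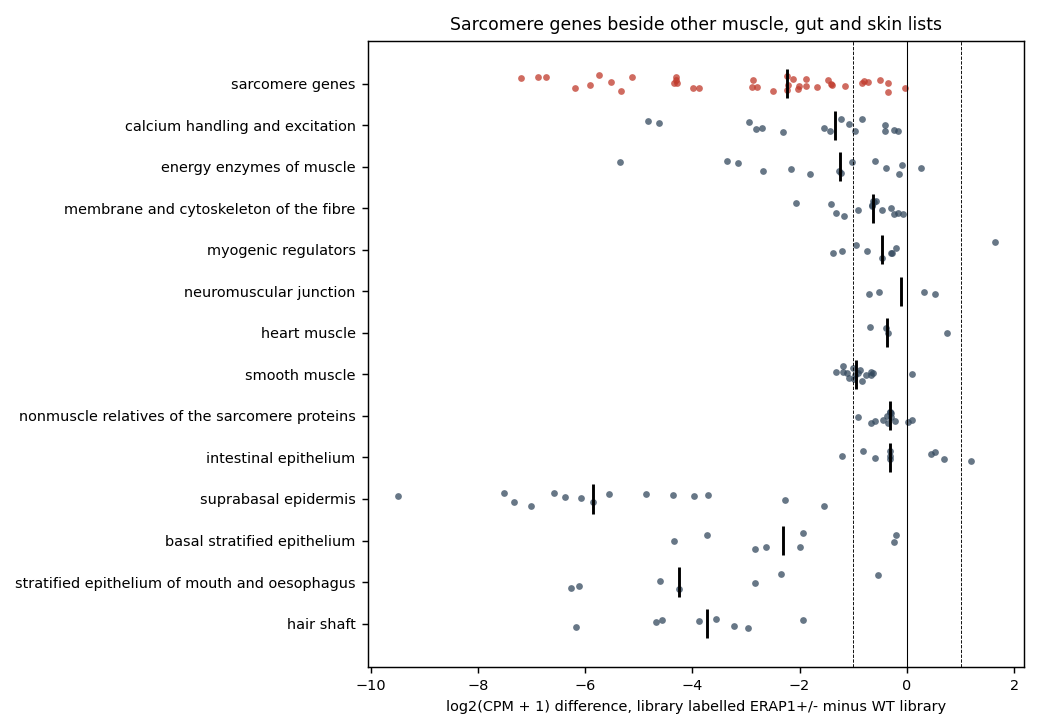
Log2(CPM + 1) difference, library labelled ERAP1+/- minus WT, of every gene with at least 10 reads in the sarcomere list (red) and in other muscle, gut and skin lists (grey), with the median of each list as a black bar and dashed lines at a 2-fold difference. The sarcomere median is -2.24, the smooth muscle median -0.94 and the median of suprabasal epidermis genes -5.85.

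Markers of skin and other stratified epithelia moved with the sarcomere genes. All 15 suprabasal epidermis genes were measured, 14 of 14 past the level filter were called lower, and their summed level was 3402 CPM in WT and 50.3 CPM in the library labelled ERAP1+/-, or 1.48% of WT. Flg, which encodes filaggrin, had 7952 and 4 reads, and 6 of the 15 (Flg2, Ivl, Dsc1, Dsg1a, Klk7 and Hrnr) had no read in the library labelled ERAP1+/-. Hair shaft genes had 4 of 4 called lower, with 166 CPM in WT and 0.322 CPM in the other library, where 7 of 8 had no read. Genes of the stratified epithelium of mouth and oesophagus had 5 of 5 called lower (713 and 34.5 CPM), and basal genes of stratified epithelium 4 of 6 (671 and 378 CPM). Without Dst and Itga6, left out after their values were seen because other cells express them too, the basal genes were at 9.16% of WT. Adipocyte genes went the other way, with a median of 0.65, and genes of nerve myelin had a median of -0.12. The part of these other tissues in the difference of the sarcomere genes was not tested.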

How the data were processed

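Pooled intestinal RNA of 3 untreated mice made up each of the 2 libraries, which were read from transcript 3' ends (QuantSeq, single reads of 75 bases). The deposited values are counts that the authors did not normalize. The methods name STAR with HTSeq-count and also Bowtie2 with RSEM, the pair that the submitters' processing notes give with GRCm38. Versions are not given in the sources used here.

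TMM factors (0.958 for WT, 1.04 for the library labelled ERAP1+/-) came from edgeR 4.0.16 (R 4.3.3) and set the library sizes behind CPM. Intervals of ratios are exact, from the binomial distribution of the reads (scipy 1.17.1). Quasi-likelihood tests cannot be fitted with 1 library per group. The members and lists were chosen with earlier results of these data known. Every member with at least 10 reads is named. From the other lists, up to 3 genes with most reads, genes against their list's direction, and genes at 0 were eligible. Alternatives were DESeq2 1.42.0 size factors, the total count, other filters and a pseudocount of 0.1 CPM. Scripts were tested on simulated data. Coordinates are from GENCODE M21 (GRCm38), promoters from RefSeq (GRCm38.p6).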

Additional observations from a re-analysis of the deposited data

How the results depend on the processing

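No paired analysis was possible because the genotypes have a single library each, and for the same reason no replicate could be left out. The count of 18 sarcomere genes called lower was 18 under DESeq2 size factors, the total count, TMM without mitochondrial and ribosomal RNA, TMM without the muscle and skin lists and a pseudocount of 0.1, and 17 at a 4-fold threshold. It was 32 with at least 10 reads in 1 or both libraries, 32 with no filter and 9 with a level of at least 6, since each of these filters changes how many genes are eligible. No sarcomere gene was called higher under any of these settings. The median log2 difference was -2.46 without mitochondrial and ribosomal RNA, -2.28 without the muscle and skin lists, -4.41 with a pseudocount of 0.1 and -2.49 without Tpm3 and Smpx. The summed level was 19.3% of WT with the total count, 20.6% without Ttn and Neb, 10.4% without Tpm3 and 9.01% without Tpm3 and Smpx.

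Scaled by the total count, the thin filament was at 33.1% and the slow genes at 24.1% of WT. Without the member with most reads, the M-band was at 16.2% (without Myom1), the Z-disc at 25.8% (without Smpx), the thin filament at 14.8% (without Tpm3), the thick filament at 1.06% (without Myl3), the giant proteins at 0.759% (without Ttn), the cardiac and developmental genes at 20.5% (without Myh8) and the slow genes at 60.0% (without Myl3). Of the 39 genes with at least 10 reads, 1 changed direction, Smpx with the total count (log2 difference 0.079), and 2 crossed the 2-fold line with a pseudocount of 0.1, Myh4 and Tnnt1. Depth limits the 6 genes without a read to bounds, and a member with 1 read in the library labelled ERAP1+/- to an interval that spans more than 100-fold.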
